A study of Mus musculus with 119 samples.

Results

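The clustered protocadherins were taken from the count tables by gene symbol: every row named Pcdha or Pcdhac with a number, Pcdhb with a number, or Pcdhga, Pcdhgb or Pcdhgc with a number was kept. The rule found 57 members among 55291 genes, and no expression value entered it. The alpha cluster had 13 members (Pcdha1 to Pcdha9, Pcdha11, Pcdha12, Pcdhac1 and Pcdhac2), the beta cluster 22 (Pcdhb1 to Pcdhb22) and the gamma cluster 22 (12 Pcdhga, 7 Pcdhgb and 3 Pcdhgc genes). In GRCm38 all lie on the plus strand of chromosome 18, the alpha cluster from 36930184 to 37187661, the beta cluster from 37264938 to 37524479 and the gamma cluster from 37661793 to 37841873.

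Clustered protocadherins are cell surface adhesion proteins of neurons and of some glia. Each neuron switches on its own small mixture of them by choosing promoters, the chosen isoforms assemble into recognition units that bind only matching units on another membrane, and in this way a neuron can tell its own branches from those of its neighbours. The C-type isoforms, at the end of the alpha and gamma arrays, are the exception to this random choice: they are diverged in sequence, are switched on more uniformly, and have roles of their own in axon tiling (Pcdhac2), dendrite branching (Pcdhgc3), the survival of interneurons (Pcdhgc4) and binding to GABA-A receptors (Pcdhgc5).

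The structure of the genes limits what a count can tell. In GENCODE M21 a first exon of each alpha or gamma gene, which codes for the extracellular part, is spliced to exons shared by the whole cluster, 2860 nt long in the alpha cluster and 2116 to 2119 nt in the gamma cluster. The first exon was 45.1 to 51.4% of an alpha transcript and 54.1 to 58.3% of a gamma transcript, and RSEM, the counter used by the authors, divides the reads of the shared part among the members by estimate. Accordingly 98.8 to 99.6% of the values of the alpha and gamma subfamilies were not whole numbers, against 15.1% for the beta genes, which share no exon, and 4.90% for all genes. Values of single alpha and gamma isoforms therefore carry an error of this division on top of the counting error, while cluster sums do not depend on how reads are split within a cluster. Pcdhb21 and Pcdhb22 overlap, and Pcdhgb8 is annotated as a polymorphic pseudogene.

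Female and male mice received vehicle or THC, the main psychoactive compound of cannabis, at 10 mg/kg in daily injections from postnatal day 28 to 48 (21 injections), and brains were taken after behavioural tests that began on day 63. The labels give the strain as C57BL/6J and the age as 11 weeks, whereas the study's methods name a C57BL/6N strain. The 119 RNA libraries cover the ventral tegmental area (VTA), the amygdala (Amy), the nucleus accumbens (NAc), the prefrontal cortex (PFC) and the dorsomedial striatum (DMS, which 1 label field calls dorsolateral), with 6 libraries in every group except vehicle males of the VTA, which have 5. The study's methods report removing 1 male VTA sample as an outlier in the expression data. That sample is not named there, and all 119 libraries were kept here. By the study's methods the regions were punched from the same brains and each region of a mouse gave its own library, so libraries of a group come from different mice and libraries of different regions share mice. The labels do not say which libraries share a mouse, so it could not enter the fits, and neither the region tests nor the THC tests of different regions are independent of each other.

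Expected counts summed to between 3090998 and 77042133 per library, the lowest in male VTA vehicle library FTL_371, and 54 members were above 0 in every library. The regions carried their defining markers: the summed level of 6 cortical projection neuron genes was 2466 CPM (counts scaled to a common library size) in the PFC and 734.2 in the Amy, that of 7 medium spiny neuron genes 7971 in the DMS and 3561 in the NAc, and that of 5 dopaminergic genes 2310 in the VTA against 2.93 to 11.7 elsewhere. The library labelled female Amy THC (FTL_344) expressed Y-linked genes, and the library labelled male Amy THC (FTL_356) expressed Xist; both were kept under their labels and results were repeated without them. One further library stood apart in the members, though not in them alone. In female Amy vehicle library FTL_338, 49 of the 57 members lay below the median of the other libraries of its group, with a median absolute deviation of 0.59 on the log2 scale, against 0.34 in the next library (male Amy THC library FTL_354) and 0.33 in library FTL_371. Library FTL_338 also had 295.8 CPM of Pcdhgc4, where the highest of the other 5 libraries of its group had 175.4 CPM. It was low outside the members too, with 4171 CPM summed over 6 pan-neuronal genes (others of its group 4766 to 5357). The sum of 12 nonclustered protocadherins was 975.3 CPM (others 1325 to 1497), while that of 6 astrocyte genes was within the range of the others (1509 CPM, others 1443 to 1767). Results that rest on it are given with and without it.

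Levels are CPM after TMM scaling and are given as mean ± SD over the libraries of a region, with n = 24, or 23 in the VTA. The gamma cluster supplied most of the message in every region, from 63.6 ± 0.97% of the members' counts in the PFC and 63.6 ± 2.02% in the VTA to 72.7 ± 0.92% in the DMS. The 3 clusters ranked the regions differently. Alpha message was highest in the PFC, at 250.2 ± 9.37 CPM summed over the cluster, followed by 167.3 ± 19.1 in the Amy, 144.7 ± 7.22 in the NAc, 127.8 ± 7.86 in the DMS and 121.7 ± 9.80 in the VTA. The lowest PFC library, at 228.8 CPM, lay above the highest library of any other region, at 197.7 CPM in the Amy, while the DMS and VTA overlapped over most of their ranges.

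Beta message was highest in the striatal regions, at 200.0 ± 13.4 CPM in the NAc and 189.1 ± 7.22 in the DMS, then 162.8 ± 7.16 in the PFC, 139.8 ± 10.4 in the Amy and 133.2 ± 6.44 in the VTA. The NAc and DMS overlapped, as did the Amy and VTA. Gamma message was 868.3 ± 50.0 CPM in the NAc, 844.7 ± 42.4 in the DMS, 739.1 ± 66.5 in the Amy and 722.8 ± 22.2 in the PFC, and far lower in the VTA, at 446.9 ± 31.5. The highest VTA library, at 543.1 CPM, was below the lowest library elsewhere, at 617.9 CPM in the Amy. As a share of the members' counts, the alpha cluster held 22.0 ± 0.70% in the PFC and 11.0 ± 0.44% in the DMS. In bulk tissue, fewer cells of a type and less RNA per cell cannot be told apart. The summed level of 6 pan-neuronal genes was 4752 CPM in the VTA, 4465 in the DMS and 4695 in the NAc, and 8881 in the PFC; that of 6 oligodendrocyte genes was 14834 CPM in the VTA and 2937 to 6772 in the other regions. The part of cell composition in the region differences was not tested.

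**Figure D1:**
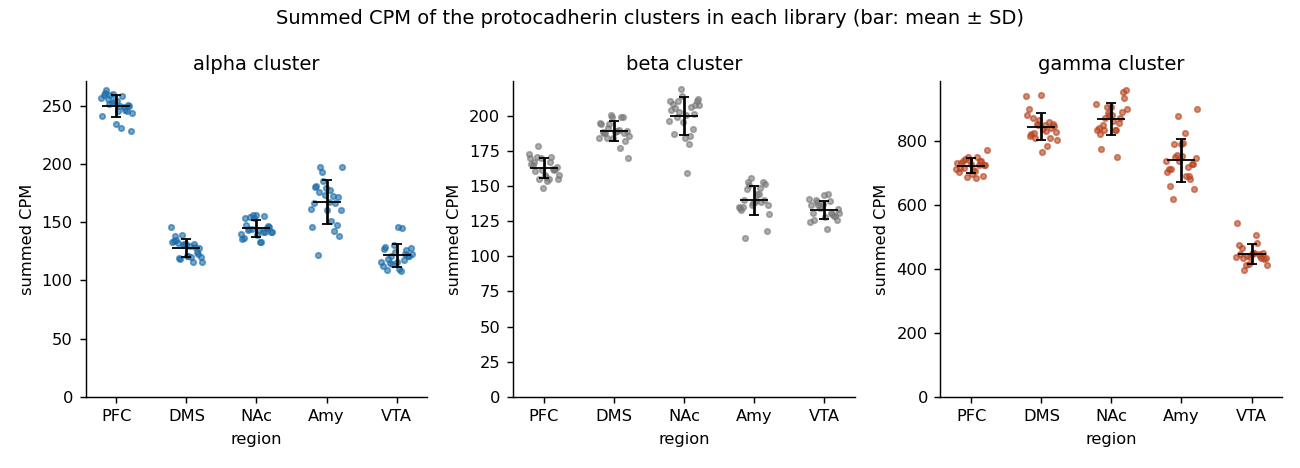
Summed CPM of the alpha, beta and gamma clusters in each library, by region, with 1 point per library and a bar for the mean ± SD of each region. The PFC stands alone at the top for alpha (mean 250.2 CPM), the NAc and DMS lead for beta and gamma, and every VTA library lies below those of the other regions for gamma (highest 543.1 CPM).

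Per kilobase of transcript, the C-type isoforms led the family. Mean levels over all libraries were 32.6 CPM per kb for Pcdhgc4, 27.4 for Pcdhgc5, 21.3 for Pcdhgc3 and 11.9 for Pcdhac2, against 7.12 for Pcdhga11 and 6.12 for Pcdhgb6, the highest of the randomly chosen isoforms. Pcdhac1 was the exception among the C-types, at 1.02 CPM per kb. The weakest members were Pcdha8 at 0.196 and Pcdhb1 at 0.224 CPM per kb. Together the 3 gamma C-types held 60.2 ± 1.13% of the gamma counts in the PFC and 49.0 ± 1.65% in the DMS, with the Amy (55.7 ± 3.15%), VTA (53.9 ± 2.01%) and NAc (53.0 ± 1.5%) between, and the lowest PFC library (58.1%) lay above the highest DMS library (52.6%). The share of Pcdhac1 and Pcdhac2 in the alpha counts varied less, from 43.8 ± 3.02% in the VTA to 48.2 ± 2.27% in the DMS, with overlapping ranges.

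The make-up of the gamma C-types was where the VTA departed from the other regions. Pcdhgc5, the isoform that binds GABA-A receptors, had a lowest, median and highest level of 162.2, 194.5 and 210.2 CPM in the PFC, 122.3, 164.9 and 207.0 in the NAc, 120.6, 138.2 and 198.5 in the DMS, and 65.8, 126.2 and 214.0 in the Amy. In the VTA the same values were 10.0, 12.5 and 17.3 CPM, so that no VTA library came near any library of another region. It supplied 44.5 ± 1.90% of the gamma C-type counts in the PFC and 5.31 ± 0.78% in the VTA. Pcdhgc3, whose cytoplasmic part binds Axin1, moved from 16.8 ± 1.10% in the PFC to 42.1 ± 2.49% in the VTA, although its level in the VTA (101.6 ± 11.0 CPM) was close to that in the Amy (102.9 ± 15.1 CPM) and the DMS (99.6 ± 6.05 CPM). Pcdhgc4 was the most even, with means from 168.3 ± 10.6 CPM (PFC) to 176.9 ± 29.3 CPM (Amy) outside the VTA and 127.1 ± 16.2 CPM in it. In the test described next, the VTA differed from the other regions by a logFC of −3.63 ± 0.06 for Pcdhgc5 and −0.46 ± 0.04 for Pcdhgc4, and Pcdhgc3 (0.04 ± 0.03) was not called. Without library FTL_338 the C-type share of the gamma counts in the Amy was 55.2%.

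**Figure D2:**
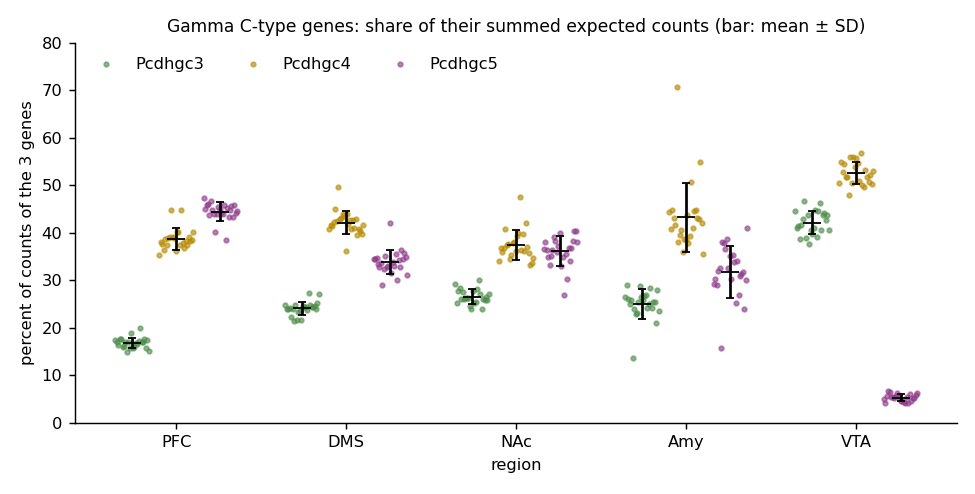
Share of Pcdhgc3, Pcdhgc4 and Pcdhgc5 in the summed counts of the 3 gamma C-type isoforms, in percent, by region, with 1 point per library and a bar for the mean ± SD. Pcdhgc5 falls from 44.5% in the PFC to 5.31% in the VTA, where Pcdhgc4 and Pcdhgc3 make up almost all of the C-type message.

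Which members differ between regions was tested in 1 fit of all libraries (edgeR quasi-likelihood test, sex and treatment as covariates), each region against the mean of the other 4 on the log2 scale. A gene was called when its Benjamini-Hochberg adjusted p (FDR) was under 0.05 and its log2 fold change (logFC) reached 0.4 in either direction. Values of logFC are given ± SE. This SE is the absolute logFC divided by the square root of the test's F statistic, so it is worked back from the test and not fitted. Regions differ so widely that between 23.9% (Amy) and 50.9% (VTA) of the 17889 genes tested were called. In the VTA 38 of the 57 members (66.7%, all genes 50.9%) were called, 27 in the NAc (47.4%, all genes 28.0%), 26 in the DMS (45.6%, all genes 42.1%), 22 in the PFC (38.6%, all genes 43.7%) and 7 in the Amy (12.3%, all genes 23.9%). The members' share was above that of all genes in the NAc and VTA, below it in the Amy and near it in the PFC and DMS, and these shares were not tested against each other. PFC and DMS libraries stand in 1 deposited table and those of the other 3 regions in another, so a contrast that crosses the tables cannot be told apart from a difference between them, and contrasts within a table are given as well.

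In the VTA the gamma cluster was lower almost throughout. There 20 of 22 gamma members were called lower and none higher (median logFC −0.77, with 0.01 for all genes), and over all members 61.4% were called lower, against 24.1% of all genes. Pcdhgc5 fell by 3.63 (SE 0.06), Pcdhga9 by 1.32 (SE 0.06) and Pcdhga1 by 1.21 (SE 0.07). Pcdhgc3 and Pcdhgb4 were the gamma members that were not called. In the beta cluster 9 of 22 members were lower, led by Pcdhb13 (−1.27 ± 0.06), Pcdhb20 (−0.81 ± 0.03) and Pcdhb19 (−0.73 ± 0.05), while Pcdhb2 was higher (0.59 ± 0.07). The alpha cluster split, with 6 members lower (46.2%) and 2 higher (15.4%, all genes 26.8% higher). The largest falls were those of Pcdha12 (−1.34 ± 0.05), Pcdha8 (−0.99 ± 0.20) and Pcdha11 (−0.85 ± 0.08), from the later part of the array. Pcdha2 (0.63 ± 0.05) and Pcdha3 (0.51 ± 0.06), from its start, were higher. Pcdha5, nearer the start, also had a lower mean log2 CPM in the VTA than in the PFC (−1.60), NAc (−0.63) and Amy (−0.73). Within their own table, 42 members (73.7%, all genes 54.2%) were called in the VTA against the NAc, 39 of them lower (all genes 26.6% lower), and 35 (61.4%, all genes 45.6%) against the Amy, 30 of them lower (all genes 22.1% lower). Pcdhgc5 fell by 3.74 (SE 0.07) against the NAc and by 3.35 (SE 0.07) against the Amy.

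In the PFC the alpha cluster rose as a block. There 12 of 13 alpha members were higher and none lower (all genes 19.1% higher, median logFC 0.84, with −0.04 for all genes), the only one not called being Pcdha2. Pcdha5 had 13.3, 16.4 and 19.9 CPM as lowest, median and highest in the PFC, and among the other regions only the highest Amy library, at 13.4 CPM, reached that range; it rose by 1.16 ± 0.04. Pcdha12 rose by 1.14 ± 0.04 and Pcdhac1 by 1.03 ± 0.05. The gamma cluster was mixed, with Pcdhgc5 (1.29 ± 0.04, against a mean that includes the VTA) and Pcdhga12 (0.53 ± 0.04) higher. Lower were 6 of 22 gamma members (27.3%), a share near that of all genes (24.6% lower), among them Pcdhgb5 (−0.80 ± 0.05) and Pcdhgb7 (−0.66 ± 0.04). In the beta cluster only Pcdhb1 and Pcdhb6 were called. Pcdhb6 had 1.06 to 3.33 CPM in the PFC and 5.80 to 10.6 CPM in the DMS, with no overlap, and fell by 1.02 (SE 0.07). Pcdhb1 was at 0 to 0.18 CPM in the PFC and 0.66 to 1.93 CPM in the NAc, and its fitted value in the PFC (−3.01 ± 0.21) depends on the prior count because its counts there are near 0. Within the table, the PFC against the DMS gave 33 members called (57.9%, all genes 51.2%), with 12 of 13 alpha members higher (all genes 22.7% higher), led by Pcdha7 (1.66 ± 0.07), Pcdha9 (1.44 ± 0.07) and Pcdha3 (1.37 ± 0.08), and 12 gamma members lower (all genes 28.5% lower), led by Pcdhga6 (−1.25 ± 0.05), Pcdhgb7 (−1.18 ± 0.05) and Pcdhgb6 (−1.11 ± 0.05).

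The striatal regions shared high gamma and beta isoforms. In the NAc, where 15.4% of all genes were called higher, 14 of 22 gamma and 11 of 22 beta members were higher and none of either cluster lower. In the DMS, where 20.8% of all genes were called higher, 11 gamma and 9 beta members were higher and 1 beta member, Pcdhb2 (−0.42 ± 0.08), lower. The mean behind both counts includes the VTA, where 20 of 22 gamma members were lower. Within the table, 8 of 22 gamma members were called in the Amy against the NAc, all lower in the Amy (36.4%, all genes 13.8% lower). Pcdhga6 set the DMS apart, with 37.4, 50.8 and 59.7 CPM as lowest, median and highest there and at most 31.7 CPM in any library elsewhere, and rose by 1.22 ± 0.03. Pcdhga10 (0.87 ± 0.04) and Pcdhgb7 (0.83 ± 0.04) followed in the DMS, and in the NAc Pcdhgc5 (1.04 ± 0.04), Pcdhgb8 (0.94 ± 0.07) and Pcdhgb7 (0.91 ± 0.04). The value of Pcdhgc5 rests on the VTA in the mean of the other regions: its mean log2 CPM was 7.37 in the NAc, 7.59 in the PFC, 7.12 in the DMS and 7.0 in the Amy, but 3.67 in the VTA. In the beta cluster Pcdhb1 rose in both (NAc 2.32 ± 0.13, DMS 1.40 ± 0.14), with Pcdhb16 (0.88 ± 0.04) and Pcdhb6 (0.74 ± 0.06) next in the NAc and Pcdhb6 (1.27 ± 0.05) and Pcdhb13 (0.83 ± 0.05) in the DMS. The alpha cluster did not share this rise. In the DMS 4 of 13 alpha members were lower (30.8%, all genes 21.3% lower) and Pcdha8 (0.47 ± 0.17) was higher. The 4 were Pcdha7 (−1.06 ± 0.06), Pcdha3 (−0.93 ± 0.07), Pcdha9 (−0.91 ± 0.06) and Pcdha2 (−0.76 ± 0.06). In the NAc Pcdha3 (−0.45 ± 0.07) and Pcdha1 (−0.41 ± 0.09) were lower. That is 15.4% of the alpha members, near the 12.6% of all genes called lower, and the alpha median logFC there was −0.08.

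The Amy had few calls of its own. Pcdha7 (0.52 ± 0.05) and Pcdhgc5 (0.56 ± 0.04) were higher and 5 beta members lower (all genes 10.4% lower), led by Pcdhb21 (−0.65 ± 0.06), Pcdhb6 (−0.64 ± 0.06) and Pcdhb19 (−0.53 ± 0.05). The mean of the other 4 regions includes the VTA, in which Pcdhgc5 is far below the rest; against the NAc alone Pcdhgc5 was lower in the Amy and short of the fold threshold (−0.38). Against the NAc 29 members were called (50.9%, all genes 27.7%), 19 of the 22 beta members being lower (all genes 13.8% lower), with Pcdhb1 (−1.91 ± 0.17), Pcdhb6 (−1.10 ± 0.08) and Pcdhb16 (−0.97 ± 0.05) in front, and Pcdha7 (0.48 ± 0.07) and Pcdha3 (0.42 ± 0.08) higher. Without library FTL_338 the Amy had 5 calls, and the NAc 24, the DMS 25, the PFC 22 and the VTA 38. Over the 6 fits that left out FTL_338 or 1 male VTA vehicle library, the Amy had 5 to 6 calls and the NAc 24. The DMS had 24 to 25, the PFC 22 and the VTA 38, so these changes were not particular to FTL_338. The full fit gave more calls in the Amy (7), NAc (27) and DMS (26) than any of the 6. Within a table, the Amy against the NAc had 24 to 25 calls in the 6 fits and the PFC against the DMS 31. The full fit gave 29 and 33. The shares of all genes in the 6 fits are not given here.

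**Figure D3:**
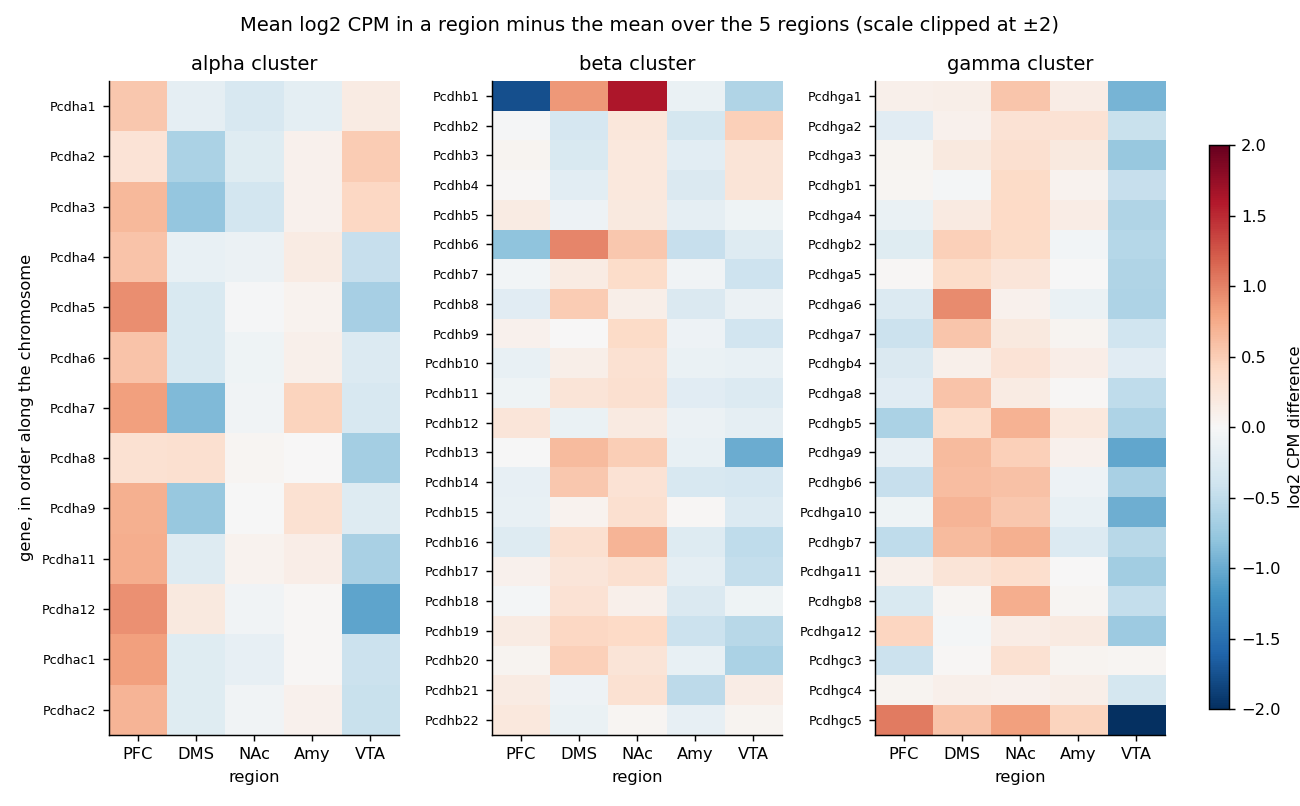
Mean log2 CPM of each member in each region minus the member's mean over the 5 regions, with members in genome order within their cluster and the colour scale clipped at ±2. The PFC column is high along the alpha cluster, the VTA column is low along the gamma cluster, with Pcdhgc5 the extreme, and the NAc and DMS columns are high in the gamma and beta clusters.

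By mean log2 CPM, the highest region was the PFC for 11 of 13 alpha members, and the NAc or DMS for 17 of 22 beta and 18 of 22 gamma members; the lowest was the VTA for 18 gamma, 11 beta and 7 alpha members. The range between the highest and lowest region mean exceeded 1 on the log2 scale for 29 of the 57 members (50.9%), against 44.0% of the 18932 genes past a low filter, and the median SD within a group was 0.21 for the members and 0.18 for all genes. Pcdhgc5 (3.93), Pcdhb1 (3.38) and Pcdha12 (1.96) had wide ranges, while the 22 beta members had a median of 0.78.

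Position along the alpha array went with the difference between the VTA and other regions. On the log2 CPM scale, the VTA minus NAc difference was 0.50 for Pcdha1, the first gene, and −0.98 for Pcdha12, the last before the C-types, and the Spearman correlation with position over the 11 genes was −0.78. The same correlation was −0.82 for the VTA minus Amy and −0.70 for the VTA minus PFC, where the difference went from −0.36 for Pcdha1 to −1.96 for Pcdha12, but −0.08 for the DMS minus PFC. These 11 points share libraries and shared-exon reads, and the 3 VTA contrasts share the VTA libraries, so the values are a description. In the beta cluster the mean level itself went with position (0.66 over 22 genes), from Pcdhb1 at 0.58 CPM to Pcdhb22 at 15.7 CPM. Beta genes differ in length and these levels were not divided by it.

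**Figure D4:**
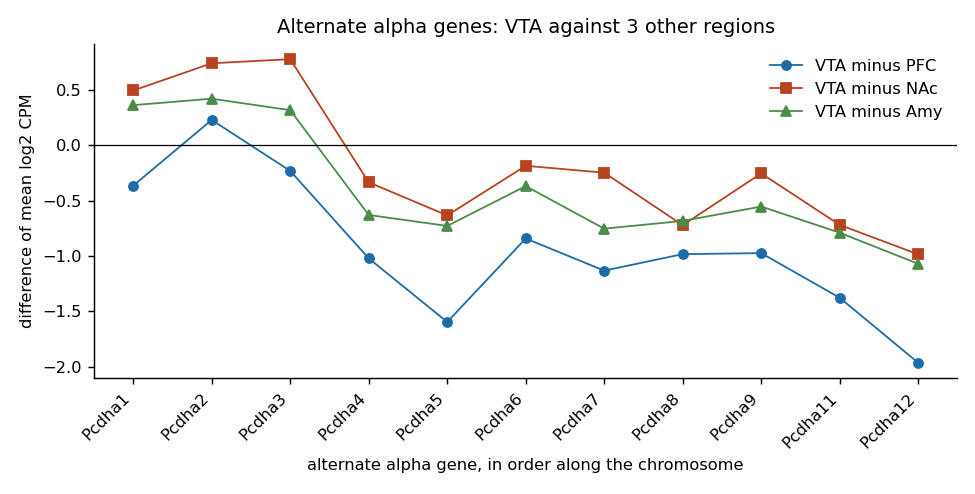
Difference in mean log2 CPM between the VTA and the PFC, NAc or Amy for the 11 alternate alpha genes, in the order of their first exons along the chromosome. All 3 lines slope down from Pcdha1 to Pcdha12 (for the VTA minus PFC, from −0.36 to −1.96), and the main step lies between Pcdha3 and Pcdha4.

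Males and females differed in few members. With treatment as a covariate, 2 members were called in the DMS, where 2.64% of 16366 genes were called, and 0 in the other 4 regions (all genes: PFC 0.240%, NAc 0.243%, Amy 0.012%, VTA 0.109%). In these 4 regions an unadjusted p under 0.05 was found for 9 members of the PFC (16.1%, all genes 16.3%), 13 of the NAc (22.8%, all genes 16.6%), 5 of the Amy (8.77%, all genes 6.0%) and 10 of the VTA (17.9%, all genes 7.16%). All 9 in the PFC were lower in males (all genes 8.34% lower). DESeq2 called 2, 1, 0 and 1 members there. The shares of all genes given here are those of edgeR, so they are no background for these DESeq2 counts. In the DMS 20 members (35.1%) had such a p, against 27.8% of all genes. Pcdha8 had 0.33, 2.03 and 2.41 CPM as lowest, median and highest in vehicle females and 0.37, 0.94 and 1.44 in vehicle males, and 0.64, 1.61 and 3.75 in THC females against 0.38, 0.72 and 1.26 in THC males. The ranges overlap, and the level in males was lower by a logFC of −1.09 ± 0.29 (edgeR FDR 0.0199). Values of the same sign in the PFC (−1.21 ± 0.33, edgeR FDR 0.0565), VTA (−1.26 ± 0.33), Amy (−0.63 ± 0.29) and NAc (−0.42 ± 0.32) did not pass. At a mean of 1.04 CPM Pcdha8 is the weakest alpha member, and its value includes reads of the shared exons. Pcdha1 was lower in DMS males by −0.42 ± 0.12 (edgeR FDR 0.0254), with medians of 3.42 and 2.34 CPM in vehicle females and males. The difference between regions in the effect of sex was not tested.

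Does THC in early adolescence change protocadherin use at 11 weeks of age, which the study counts as late adolescence? In 9 of the 10 comparisons of THC with vehicle, by region and sex, edgeR called 0 members; of all genes tested it called 2 in the female DMS (0.0127%) and 0 in the other 8. Between 55 and 57 members were tested, their median logFC lay between −0.05 and 0.12, and 2 to 5 had an unadjusted p under 0.05 outside the male NAc, where 17 did. DESeq2 also called 0 members in these 9. Its share of all genes is not given here, and the edgeR shares are no background for this count. The study's own DESeq2 analysis reported differentially expressed genes in the male NAc at the same thresholds. In the female PFC 3 members had an unadjusted p under 0.05, 2 of them higher, where 5.84% of all genes had one (2.7% higher, 3.13% lower), and in the male PFC 3 members, 1 of them higher (all genes 4.07%, 2.3% higher, 1.76% lower). The female DMS had 4, of which 1 was higher (all genes 8.9%, 3.73% higher, 5.17% lower), and the male DMS 2, of which 1 was higher (all genes 1.93%, 0.92% higher, 1.01% lower). All 3 in the female NAc were higher (all genes 4.61%, 2.43% higher, 2.17% lower), as was 1 of 3 in the male Amy (all genes 1.84%, 1.16% higher, 0.685% lower). The VTA had 4 in females, 1 of them higher (all genes 9.02%, 4.64% higher, 4.38% lower), and 5 in males, 1 of them higher (all genes 5.92%, 3.44% higher, 2.47% lower). The members' share was below that of all genes in the female PFC, DMS and VTA and above it in the female NAc and the male PFC, DMS, Amy and VTA, on these counts of 2 to 5 members. The median SE of a member's logFC was between 0.09 and 0.13. A difference below the fold threshold could not be called at any SE. Estimates past it were not always called either, such as Pcdha1 in the male VTA (−0.71) and Pcdhb4 in the male Amy (−0.62).

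In the female Amy, where 1.57% of 17003 genes were called (1.09% higher with THC), 1 of 57 members (1.75%) was: Pcdhgc5. Its level was 65.8, 114.5 and 122.3 CPM as lowest, median and highest in vehicle females and 133.6, 152.7 and 190.2 CPM in THC females. All 6 THC libraries lay above all 6 vehicle libraries, as was so for 3.76% of the 18932 genes past a low filter, and Pcdhgc5 was higher with THC by a logFC of 0.55 ± 0.13 (edgeR FDR 0.0392). Library FTL_338 is the lowest vehicle library; without it the logFC was 0.44 ± 0.07 (edgeR FDR 0.0045). In 9 of the 12 fits that leave out 1 library the FDR was above 0.05. Over the 12 fits Pcdhgc5 had a logFC between 0.44 and 0.59 and an FDR between 0.0045 and 0.108, the highest without THC library FTL_342; when FTL_344 was left out the FDR was 0.0664. The FDR was also 0.0744 with no filter on low counts and 0.0833 with the 4 Amy groups in 1 fit, and 0.0023 in DESeq2.

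The rest of the family leaned the same way in the female Amy without passing the test. Of the 57 members 51 had a positive logFC (89.5%, all genes 48.6%), with a median of 0.19 (all genes −0.01), and 10 had an unadjusted p under 0.05, all higher with THC (17.5%, all genes 10.8% higher, 21.9% in either direction). Members share libraries and, in the alpha and gamma clusters, shared-exon reads, so their signs are not separate observations. Without vehicle library FTL_338, in which most members were low, 48 of 57 members were positive and the median was 0.11. In that fit 6 members had such a p, so the lean was smaller. The shares of all genes in that fit are not given here. The 10 include Pcdha12 (0.26 ± 0.08), Pcdhb22 (0.24 ± 0.08) and Pcdhac2 (0.28 ± 0.12, a C-type isoform). Pcdhga7 was the other member whose groups did not overlap, at 17.1 to 29.2 CPM in vehicle and 29.3 to 32.0 CPM in THC females. Pcdhgc4 had a median of 163.7 CPM in vehicle and 168.0 CPM in THC females, and Pcdhgc3 of 98.1 and 110.6 CPM.

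Markers of the tissue moved with these values in the female Amy. The summed level of 6 cortical and basolateral projection neuron genes was 505.1 to 745.3 CPM in vehicle and 794.2 to 1137 CPM in THC females, without overlap and with all 6 genes higher on average. All 7 medium spiny neuron genes were higher on average too (429.4 to 1006 and 762.4 to 1296 CPM), and of 6 hypothalamic and medial amygdala genes all were lower (28.3 to 49.4 and 18.1 to 33.4 CPM). All 6 oligodendrocyte genes were lower on average, with overlapping sums of 2300 to 7387 CPM in vehicle and 2491 to 4376 CPM in THC females. The summed level of 6 choroid plexus genes ran from 17.6 to 1151 CPM in vehicle and from 18 to 3582 CPM in THC females. No list had a gene at 0 in every library. The part of these markers in the Pcdhgc5 difference was not tested.

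In males of the same region Pcdhgc5 was 102.4, 128.8 and 154.7 CPM in vehicle and 94.5, 124.7 and 214.0 CPM in THC mice, a logFC of 0.05 ± 0.18, and the sex x treatment interaction was −0.50 ± 0.23 (edgeR FDR 0.300). The highest value belongs to the library labelled male Amy THC (FTL_356). Without it the male logFC was −0.13. The interaction test of edgeR called 0 members in the 5 regions (0.00590% of all genes in the Amy and 0 elsewhere). DESeq2 also called 0 members, and its share of all genes is not given here. An unadjusted p under 0.05 was found for 8 members in the Amy (14.0%, all genes 15.8%), all 8 with a lower effect of THC in males (all genes 6.6%). Without library FTL_338 it was found for 4 members, and the share of all genes in that fit is not given here. In the PFC there were 2 (3.57%, all genes 5.87%), in the DMS 3 (5.26%, all genes 5.9%), in the NAc 3 (5.26%, all genes 11.0%) and in the VTA 3 (5.36%, all genes 6.16%).

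**Figure D5:**
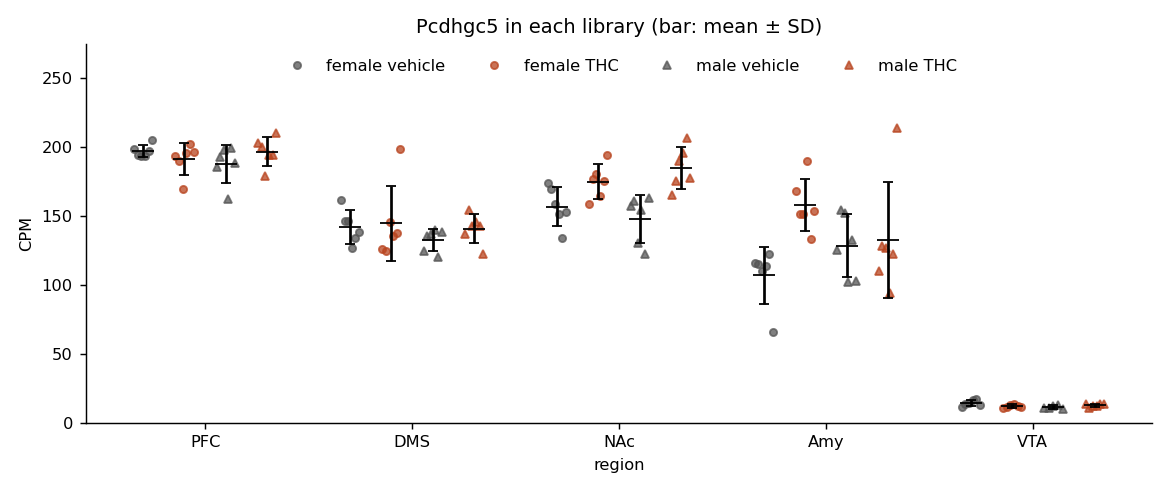
CPM of Pcdhgc5 in each library by region, sex and treatment, with 1 point per library and a bar for the mean ± SD of each group. THC libraries lie above vehicle libraries in the female Amy (133.6 to 190.2 against 65.8 to 122.3 CPM) and in the male NAc (165.3 to 207.0 against 122.3 to 163.3 CPM), and all VTA libraries lie at or under 17.3 CPM.

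In the male NAc more members leaned one way than in the other 8 comparisons without a call. There edgeR called 0 of 15932 genes, and 17 members had an unadjusted p under 0.05 (29.8%, all genes 16.7%), 16 of them higher with THC (28.1%, all genes 8.10% higher). Positive values were found for 46 of 57 members (80.7%, all genes 49.8%), and for all 12 Pcdhga members. As in the female Amy, these signs are not separate observations. Pcdhgc5 had the smallest p of the members, with 122.3, 155.9 and 163.3 CPM in vehicle and 165.3, 184.1 and 207.0 CPM in THC males. Its groups did not overlap, which was so for 0.771% of all genes, and its logFC was 0.32 ± 0.08 (edgeR FDR 0.210). Pcdhb18 likewise did not overlap, at 6.58 to 8.55 CPM in vehicle and 8.62 to 9.68 CPM in THC males, with a logFC of 0.21 ± 0.08. In the same libraries all 7 medium spiny neuron genes were higher on average with THC (summed 2363 to 3645 CPM in vehicle and 3294 to 5006 CPM in THC males), all 6 cortical projection neuron genes lower (4.82 to 104.9 and 2.07 to 12.3 CPM) and all 6 oligodendrocyte genes lower (3821 to 6413 and 3465 to 5417 CPM), and their part was not tested. With both sexes in 1 fit edgeR called 0 members in the 5 regions, as did DESeq2. The shares of all genes called in these fits are not given here. An unadjusted p under 0.05 was found in the DMS for 4 members (7.02%, all genes 4.89%), in the VTA for 5 (8.93%, all genes 10.2%), in the Amy for 6 (10.5%, all genes 7.05%) and in the PFC for 0 (all genes 4.78%). In the NAc it was found for 12, all higher (21.1%, all genes 5.60% higher), with Pcdhgc5 at 0.23 ± 0.05 (edgeR FDR 0.301).

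Pcdhga5, a randomly chosen gamma isoform, had the smallest p of the members in 3 female regions and did not pass in any. In the PFC it was at 16.8 to 20.6 CPM in vehicle and 13.3 to 16.8 CPM in THC females, without overlap although the bounds that meet are equal to 3 digits (0.333% of all genes did not overlap), with a logFC of −0.30 ± 0.07 (edgeR FDR 0.659). In the DMS the values were 21.1 to 27.6 and 16.6 to 20.9 CPM, again without overlap (0.481% of all genes), with a logFC of −0.30 ± 0.08 (edgeR FDR 0.256), and in the VTA −0.29 ± 0.10 (edgeR FDR 0.512), with overlapping groups. In males its logFC was positive in the NAc (0.24 ± 0.08) and PFC (0.17 ± 0.07), −0.05 ± 0.09 in the DMS and −0.06 ± 0.09 in the VTA, and the PFC interaction was 0.46 ± 0.11 (edgeR FDR 0.834). Libraries of these regions come from the same females, so the 3 values are not independent.

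The members with the smallest p in the other comparisons were further from a call. Pcdha5 in the female NAc had medians of 7.46 CPM in vehicle and 9.48 CPM in THC mice and a logFC of 0.29 ± 0.09. Pcdha3 in the male PFC had 10.6 and 8.41 CPM (−0.25 ± 0.09), Pcdhb10 in the male DMS 5.15 and 4.25 CPM (−0.23 ± 0.11) and Pcdhb4 in the male Amy 1.94 and 1.22 CPM (−0.62 ± 0.23). Pcdha1 in the male VTA had 4.55 and 2.91 CPM (−0.71 ± 0.22), and its logFC ranged from −0.85 to −0.57 when 1 library was left out, without a call. All these groups overlap, and the FDRs of the 5 lay between 0.819 and 1.00.

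Genes that act with the clusters were read from 3 lists chosen with earlier results of these data known: 18 regulators of promoter choice (CTCF, cohesin and its loaders and releasers, DNA methyltransferases, Smchd1 and Rest), 17 partners of the proteins (kinases bound by their cytoplasmic part, the WAVE actin complex, cutting enzymes and others) and 12 nonclustered protocadherins. In the VTA 8 of 18 regulators were called (44.4%, all genes 50.9%), 7 of them lower (all genes 24.1% lower). In the other regions 0 to 3 were called, a smaller share than that of all genes in each. Pds5b, a cohesin-bound factor, was at 77.9 ± 4.54 CPM in the VTA and at 134.7 ± 7.69 CPM or more elsewhere (logFC −0.90 ± 0.02), and Rest, a repressor of neuronal genes, was higher (0.65 ± 0.04). Stag1 (−0.61 ± 0.02), a cohesin subunit, was next, and Ctcf, which anchors the loops between enhancers and protocadherin promoters, was lower by −0.46 ± 0.02. In the PFC 2 regulators were called, Rest (−1.09 ± 0.05) and Dnmt3b (−0.41 ± 0.14), the enzyme that methylates unused protocadherin promoters; in the DMS 3, led by Stag1 (0.49 ± 0.02) and Dnmt1 (−0.47 ± 0.03); in the NAc 3, led by Dnmt3a (0.53 ± 0.02) and Pds5b (0.44 ± 0.02); and in the Amy 0. The median logFC of the regulators was −0.32 in the VTA, against 0.01 for all genes.

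Of the 17 partners 10 were called in the VTA (58.8%, all genes 50.9%). Ptk2b, the PYK2 kinase that protocadherin tails restrain, was at 12.2 ± 7.60 CPM there and at 420.8 ± 75.8 to 664.1 ± 36.8 CPM in the other regions (−5.49 ± 0.12), while Ret, a receptor kinase known from dopaminergic neurons that phosphorylates the tails, was at 601.8 ± 154.0 CPM in the VTA and at 2.83 ± 2.45 to 14.1 ± 5.0 CPM elsewhere (6.45 ± 0.09). The other regions gave 9 partners in the PFC (52.9%, all genes 43.7%, Ret −2.58 ± 0.14, Ptk2b 1.3 ± 0.07), 8 in the DMS (47.1%, all genes 42.1%, Ret −3.19 ± 0.15, Ptk2b 1.85 ± 0.07), 2 in the NAc (11.8%, all genes 28.0%, Ptk2b 1.38 ± 0.07, Wasf1 0.48 ± 0.03) and 1 in the Amy (5.88%, all genes 23.9%, Ptk2b 0.96 ± 0.07). Among the nonclustered protocadherins, 9 of 12 were called in the DMS (75%, all genes 42.1%) and 8 of these were lower, with Pcdh19 (−2.37 ± 0.06) and Pcdh8 (−2.17 ± 0.08) at the front, and in the Amy 6 were called (50.0%, all genes 23.9%), all higher (Pcdh8 1.87 ± 0.06, Pcdh19 1.66 ± 0.05). In the VTA 6 were called (50.0%, all genes 50.9%, Pcdh1 −1.20 ± 0.04, Pcdh12 0.74 ± 0.15), in the NAc 7 (58.3%, all genes 28.0%, Pcdh8 1.16 ± 0.06, Pcdh7 −0.51 ± 0.04) and in the PFC 7 (58.3%, all genes 43.7%, Pcdh7 0.89 ± 0.03, Pcdh18 −0.77 ± 0.05).

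With THC, the lists gave calls in the female Amy alone, where 2 of 17 partners passed (11.8%, all genes 1.57%) and 6 had an unadjusted p under 0.05 (all genes 21.9%). Ptk2b had 299.7, 379.5 and 401.6 CPM as lowest, median and highest in vehicle and 438.6, 498.5 and 563.5 CPM in THC females (0.44 ± 0.08, edgeR FDR 0.02). Wasf1, a WAVE complex subunit, had 142.5, 149.9 and 156.7 CPM in vehicle and 174.8, 200.5 and 230.1 CPM in THC females (0.42 ± 0.07, edgeR FDR 0.0103). Neither gene's groups overlap. With the 4 Amy groups in 1 fit the FDR was 0.0603 for Ptk2b and 0.0638 for Wasf1, and leaving out 1 library ended the call in 5 of 12 fits for Ptk2b (without library FTL_338 its logFC was 0.38) and in 4 of 12 for Wasf1. The marker differences given for Pcdhgc5 hold for these libraries too, and their part was not tested. No regulator and no nonclustered protocadherin was called in any of the 10 THC comparisons, and no gene of the 3 lists in the interaction tests or between the sexes.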

How the data were processed

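The 119 libraries were mRNA of 5 brain regions of vehicle- or THC-treated mice, grouped by the labels into 20 groups. The authors trimmed reads with cutadapt 2.9, aligned them to mm10 with STAR 2.7.3a and counted them with RSEM 1.3.1, per the submitters' processing notes. The annotation release is not given in the sources used here. The deposited values are expected counts per gene symbol, in 2 tables of 55291 genes (PFC and DMS; NAc, Amy and VTA), of which 4.75 and 5.00% are not whole; they were rounded. No per-sample column was left unused. Coordinates and transcript lengths came from GENCODE M21 (GRCm38), which held 53292 of the gene names.

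Genes were filtered with filterByExpr, scaled by TMM and tested with edgeR 4.0.16 (robust quasi-likelihood F test, R 4.3.3) on all genes passing the filter, with Benjamini-Hochberg adjustment; a call needed an FDR under 0.05 and an absolute logFC of at least 0.4. Log2 CPM used a prior count of 2. THC was compared with vehicle within each region and sex, and the interaction, both sexes together and sex within each region. DESeq2 1.42.0, its size factors, no filter, other samples in the fit and leaving out libraries were the alternatives. The leave-outs of library FTL_338 outside the female Amy comparison were chosen after seeing the data. By the study's methods each library is 1 region of 1 mouse, so the spread within a group is between mice; the labels do not give which libraries of different regions share a mouse. The scripts were tested on simulated data.

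The members and lists were chosen with earlier results of these data known. Named genes were the C-type members, the 3 highest, 2 lowest and 2 most region-dependent of each other subfamily, every member called by edgeR in a THC or sex test, the member of smallest p in each THC comparison, the 3 largest calls per cluster in each region comparison, and, of the pathway lists, the genes called with THC and the 2 largest calls per list and region. Pcdha2, Pcdhb2, Pcdhb18, Pcdhga12 and Ctcf were named after their values were seen.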

Additional observations from a re-analysis of the deposited data

Results flagged for a closer look

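Of 220 groups of libraries examined for 11 quantities, 24 held a library whose gap to the nearest other exceeded the 95% limit for its group; chance gives about 1 in 20 such groups. Female Amy vehicle library FTL_338 accounts for 5 of them. It was lowest in the beta sum (112.7 CPM, others 133.1 to 140.2), Pcdhgc5 (65.8 CPM, others 110.2 to 122.3), Pcdhac2 (40.6 CPM, others 64.5 to 77.5) and Pcdhga5 (9.85 CPM, others 16.9 to 20.1), and highest in Pcdhgc4 (295.8 CPM, others 153.0 to 175.4).

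In the PFC the alpha sum was low in female vehicle library FTL_262 (241.6 CPM, others 256.2 to 263.6), female THC library FTL_272 (234.5 CPM, others 251.3 to 260.6) and male THC library FTL_283 (228.8 CPM, others 243.5 to 250.8). The gamma sum was low in male NAc vehicle library FTL_325 (750.9 CPM, others 834.8 to 881.6) and high in female VTA vehicle library FTL_358 (543.1 CPM, others 433.9 to 473.2).

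Among the C-type isoforms, Pcdhgc5 was low in male PFC vehicle library FTL_276 (162.2 CPM) and high in female DMS THC library FTL_296 (198.5 CPM, others 124.7 to 145.4) and in the library labelled male Amy THC, FTL_356, (214.0 CPM, others 94.5 to 128.3). Pcdhgc4 was high in female DMS THC library FTL_291 (215.8 CPM), male DMS THC library FTL_303 (179.7 CPM) and female VTA vehicle library FTL_358 (176.7 CPM). Pcdhgc3 was low in male VTA vehicle library FTL_369 (100.0 CPM), Pcdhac1 low in male Amy THC library FTL_354 (3.36 CPM, others 4.83 to 5.26) and Pcdhac2 high in male DMS THC library FTL_303 (65.9 CPM).

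Pcdha8, a weak member, was high in female PFC THC library FTL_270 (4.22 CPM), male PFC THC library FTL_282 (1.60 CPM), male Amy vehicle library FTL_348 (1.62 CPM) and male VTA THC library FTL_376 (1.11 CPM). Pcdhga5 was high in male VTA vehicle library FTL_371 (12.8 CPM, others 9.44 to 10.1), the library of lowest depth.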

How the results depend on the processing

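The call of 1 member in the female Amy became 0 with no filter and with all 4 Amy groups in 1 fit, and ranged from 0 to 1 when 1 library was left out. Between the sexes DESeq2 called 2 members in the PFC (Pcdha8 and Pcdhb4), 1 in the NAc (Pcdhga1) and 1 in the VTA (Pcdhgb1), where edgeR called 0. The 55 region counts, 44 counts within a table, 24 interaction counts and 24 counts with the sexes together stayed within 1.5 times the reported count. Of the counts in the pathway lists, regulators called in the PFC went from 2 to 1 with DESeq2 size factors. Divided by the library total in place of TMM, the summed CPM of the PFC was 231.3 for alpha, 150.5 for beta and 668.2 for gamma, and that of the VTA 139.7 for beta. Divided by transcript length, the C-type share of alpha was 44.5% in the PFC, 45.9% in the DMS and 45.1% in the NAc.

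Among 1012 logFC values under alternatives, 5 changed sign, all near 0 and without a call. Pcdhga5 ranged from −0.16 to 0.017 in the female Amy when 1 library was left out (0.0083 without library FTL_333, 0.017 without FTL_343, 0.0033 without FTL_344) and from −0.089 to 0.0019 in the male VTA, the latter without library FTL_371. Pcdhgc5 in the male Amy was −0.13 without library FTL_356. The cause was not tested. No paired analysis was possible because the labels give every library a number of its own.

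Depth limits the weakest members, Pcdha8, at 0 in 1 library, and Pcdhb1, at 0 in 8. Pcdha4 was at 0 in library FTL_371 and at 6.85 CPM or more in the others, and the cause was not tested. RSEM's division of shared-exon reads adds an error to alpha and gamma isoforms that these files do not measure.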
